A study of Mus musculus with 22 samples.

Results

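The genes described here encode neuronal surface and secreted proteins with leucine-rich repeats that act in cell adhesion and synapse formation. A list of 43 gene symbols defined them, and 40 of the 43 were among the 13785 named genes of the expression table. Slitrk4, Lrig3 and Rtn4r were not analysed here. The 40 members fall into the LRRTM (4), SALM or Lrfn (5), NGL or Lrrc4 (3), Lrrn (3), Lingo (3), Slitrk (5), Amigo (3), Lrig (2), Lrit and Lrtm (4) and Lgi (2) families, the neurotrophin receptors Ntrk2 and Ntrk3, the Nogo receptor relatives Rtn4rl1 and Rtn4rl2, and Lrrc24 and Lrrc3b.

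Leucine-rich repeats are short protein segments that stack into a curved sheet and bind other proteins. LRRTM, SALM, NGL and Slitrk proteins are known chiefly from the postsynaptic membrane of brain neurons, where they bind presynaptic neurexins, netrin-G proteins and receptor phosphatases of the LAR type. In the retina, photoreceptor terminals contact the dendrites of bipolar cells in the outer plexiform layer, and the leucine-rich repeat proteins nyctalopin, Elfn1, Lrit1 and Lrit3 are known to act at that contact.

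RNA was sequenced from sorted cells of the mouse retina. Bipolars, rods and cones were taken at postnatal day 7, 13 or 30 (written P7, P13 and P30), while rod bipolars and cone bipolars, which differ in the photoreceptor they contact, were taken at P13 only. With 2 libraries for each of 11 groups there were 22 libraries, and the series design calls the bipolars ON-bipolars. The sources used here give no strain, genotype, sex or sorting marker.

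The libraries held 14.4 to 54.4 Mreads (reads in units of 1e6), and levels are given in CPM (counts per 1e6 reads of the effective library size). Each pair of values below is replicate 1 and replicate 2 of a group. Differences are log2 fold changes ± SE from a limma model over all 22 libraries, and a call means a p under 0.05 after Benjamini-Hochberg adjustment over 13405 genes together with a log2 fold change that reaches 1 in either direction. All 40 members passed the filter on low values. Whether a group's 2 libraries are from different animals is not stated, so the p-values reflect only how far the libraries differ, which may be technical. Rod markers summed to 8036 CPM or more in every rod library, cone markers to 10803 CPM or more in every cone library, and the 5 bipolar markers to 4846 CPM or more in every bipolar library. The bipolar markers reached at most 22.6 CPM in a rod library and 492 CPM in a cone library. Replicates correlated least across genes in cones at P30 (Pearson r = 0.849) and in rods at P13 (0.852), and rods at P13 had the widest spread, a median SD of 0.492 on the log2 scale.

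Bipolars expressed most of the family and rods the least. At least 1 CPM was reached in both libraries by 36, 38 and 37 of the 40 members in bipolars at P7, P13 and P30, by 15, 11 and 11 members in rods, and by 25, 26 and 20 members in cones. Rod bipolars had 32 such members and cone bipolars 38. Over all genes the share was 82.65%, 85.07% and 86.91% in bipolars at the 3 ages, 72.31%, 67.41% and 74.59% in rods, and 80.99%, 77.13% and 72.21% in cones. In rod bipolars 80.0% of members and 81.76% of all genes reached that level, and in cone bipolars 95.0% of members and 85.41% of all genes. Members with no reads at all in a group numbered 7, 6 and 4 in rods and 0, 1 and 8 in cones at the 3 ages, and 0 in every bipolar group. Where both libraries of a group have no reads, a level of up to 3 reads over the group, 0.0275 to 0.0766 CPM depending on the group, would be missed, counting error only.

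**Figure D1:**
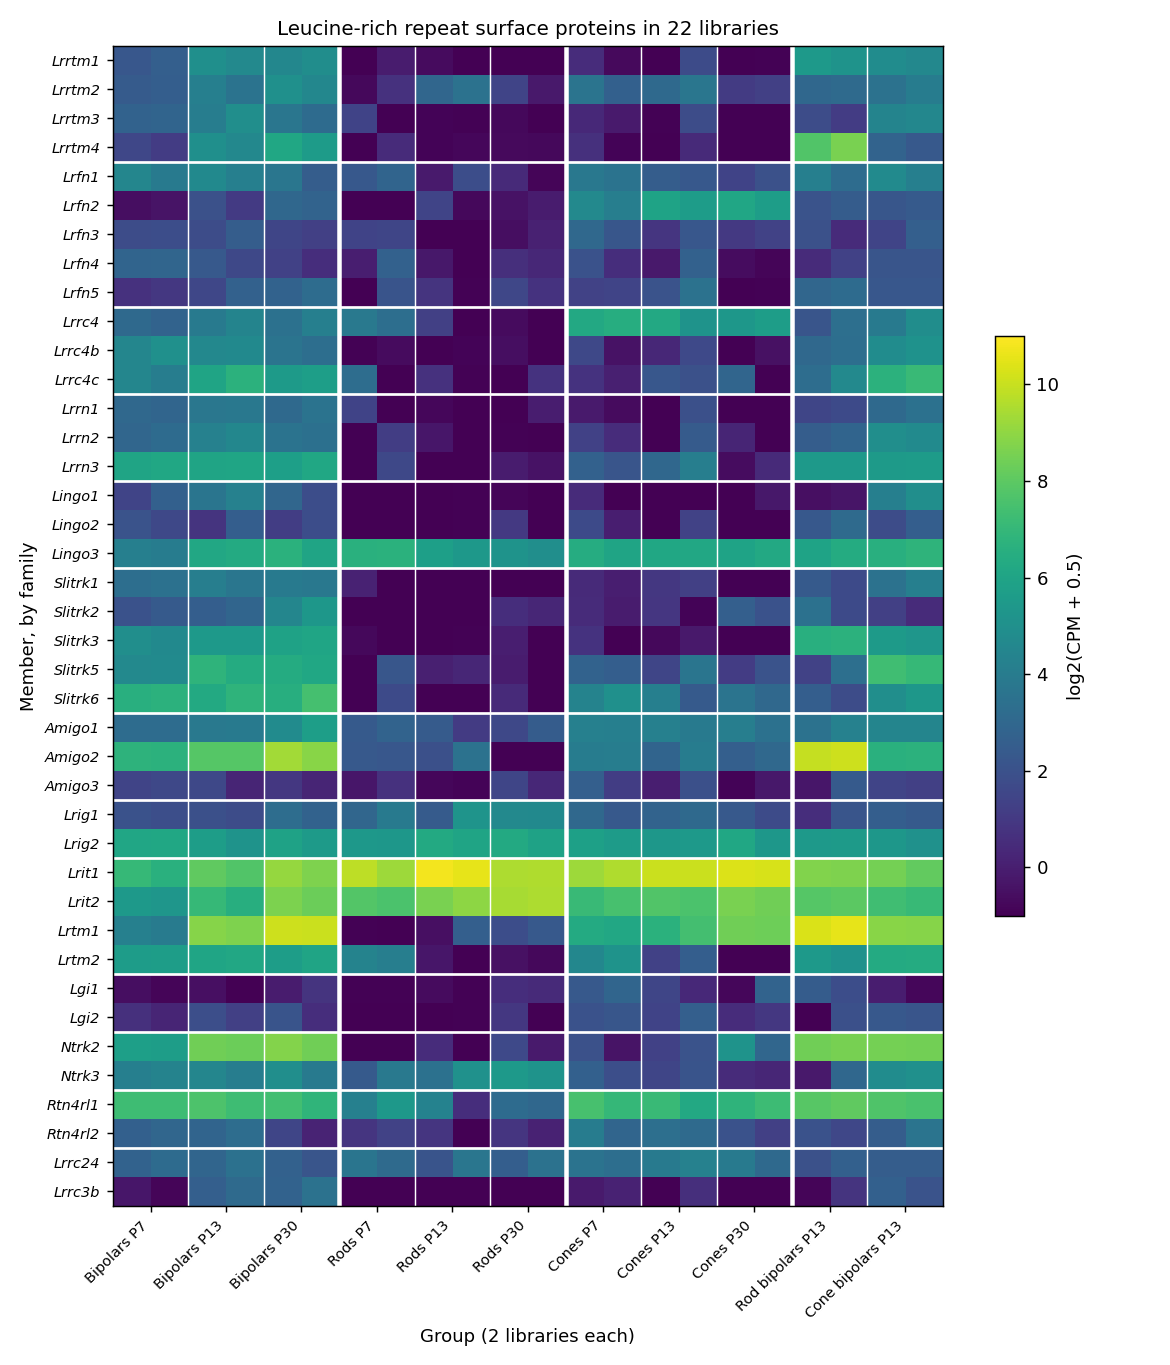
Level of each of the 40 members, as log2(CPM + 0.5), in the 22 libraries (columns, 2 per group, bipolars, rods, cones, then the bipolar classes) with members grouped by family (rows). Most rows are bright in the bipolar columns and dark in the rod columns, and Lrit1 and Lrit2 are bright throughout.

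Lrit1 and Lrit2 were the leading members of photoreceptors, and Amigo2 and Lrtm1 led per kilobase of exon in bipolars at P30 and in rod bipolars. Lrit1 is known as a protein of photoreceptor synapses, Lrit2 is its close relative, Lrtm1 is a related membrane protein, and Amigo2 is an adhesion protein known in mouse retina from the dendrites of rod bipolars and starburst amacrine cells. Per kilobase of exon, Lrit1 or Lrit2 had the highest level of all members in every rod and cone group, and Amigo2 in bipolars at P13 and P30 and in rod bipolars. At P13 Lrit1 came after Amigo2 in bipolars and Lrtm1 after Lrit1, and in cone bipolars the order was Lrit1, Lrtm1 and Rtn4rl1. In bipolars at P7 the order per kilobase was Rtn4rl1, Amigo2 and Lrit1, at 43.8, 33.9 and 26.6 CPM per kb. These orders depend on the division by exon length. In CPM alone Lrtm1 was above Amigo2 in bipolars at P30, at 1081.5 against 551.9 mean CPM. The same held in rod bipolars, at 1374.6 against 1031.5 mean CPM. Lrit1 and Lrit2 lie next to each other in the same direction on chromosome 14, at 37054830 to 37064946 and 37067929 to 37073743 (GRCm38), and Lrtm1 lies on the same chromosome at 29018208 to 29033645. Amigo2 lies on chromosome 15 at 97244125 to 97247287 on the minus strand.

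The 250 bases before a RefSeq transcription start of each of these 4 genes (GRCm38.p6) are shown because the 3 chromosome 14 genes rose together with age in bipolars. Capitals mark matches on either strand to TAATCC, the core bound by the photoreceptor and bipolar factors Crx and Otx2, to TGCTGA, a half-site of Maf-type factors such as Nrl, and to CAGATG, an E-box. Lrit2 has 2 such windows in the RefSeq table, and the one listed first is shown. That window ends at 37068028, inside the Lrit2 span given above, which begins at 37067929. Both marked matches of Lrit2 lie within that span.
Lrit1, chr14:37054580-37054829, plus strand: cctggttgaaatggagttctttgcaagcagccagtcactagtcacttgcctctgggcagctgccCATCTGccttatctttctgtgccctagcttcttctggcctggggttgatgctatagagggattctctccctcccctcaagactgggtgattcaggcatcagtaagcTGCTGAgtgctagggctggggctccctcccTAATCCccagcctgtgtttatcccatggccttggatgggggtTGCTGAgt
Lrit2, chr14:37067779-37068028, plus strand: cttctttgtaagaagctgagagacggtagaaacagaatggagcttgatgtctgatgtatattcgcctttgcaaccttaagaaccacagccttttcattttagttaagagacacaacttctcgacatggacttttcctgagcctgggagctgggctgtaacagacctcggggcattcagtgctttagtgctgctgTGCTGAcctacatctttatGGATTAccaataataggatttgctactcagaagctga
Lrtm1, chr14:29017958-29018207, plus strand: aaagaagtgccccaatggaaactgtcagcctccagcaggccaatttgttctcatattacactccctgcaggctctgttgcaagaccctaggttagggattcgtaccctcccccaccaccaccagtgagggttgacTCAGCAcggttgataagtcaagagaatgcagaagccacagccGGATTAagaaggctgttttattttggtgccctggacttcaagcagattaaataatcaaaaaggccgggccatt
Amigo2, chr15:97247288-97247537, minus strand: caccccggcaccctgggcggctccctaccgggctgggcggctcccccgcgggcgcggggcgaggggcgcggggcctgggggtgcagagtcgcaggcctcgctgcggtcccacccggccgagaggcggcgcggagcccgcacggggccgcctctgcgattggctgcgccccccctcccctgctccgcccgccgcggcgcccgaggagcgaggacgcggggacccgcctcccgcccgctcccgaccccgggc
TAATCC or its reverse GGATTA was present in 3 of the 33 member windows held by the RefSeq table, those of Lrit1, Lrit2 and Lrtm1. That is 9.09% of member windows, against 6.38% of the windows of 27025 genes. TGCTGA was present in 8 member windows (24.2%, against 15.8% of all) and CAGATG in 7 (21.2%, against 14.5%). The Amigo2 window held none of the 3. No motif overlapped another in these 4 windows, and a match describes the letters only.

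Lrit1 had 133 and 97.2 CPM in bipolars at P7, 266 and 216 at P13 and 541 and 415 at P30. In rods it had 906 and 599, 1769 and 1491, and 738 and 766 CPM at the same ages, and in cones 614 and 765, 1068 and 1051, and 1335 and 1242 CPM. Every bipolar library lay below every photoreceptor library of its age. The difference of bipolars from the mean of rods and cones was -2.64, -2.45 and -1.05 on the log2 scale at the 3 ages, each ± 0.19 (adjusted p = 4.78e-08, 8.29e-08 and 0.000373). The P30 call was lost without bipolar P30 replicate 2 (-0.86) and with plain or non-mitochondrial library totals. Within bipolars Lrit1 rose by 2.06 ± 0.22 on the log2 scale between P7 and P30 (adjusted p = 9.39e-06).

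Lrit2 had 44.998 and 39.4 CPM in bipolars at P7, 132 and 91.6 at P13 and 396 and 314 at P30. Rods had 223 and 195, 387 and 503, and 681 and 724 CPM, and cones 140.2 and 184, 213 and 195, and 390.0 and 336 CPM. It therefore rose between P7 and P30 in bipolars (3.06 ± 0.20, adjusted p = 7.05e-08), in rods (1.75 ± 0.20, adjusted p = 1.76e-05) and in cones (1.17 ± 0.20, adjusted p = 0.00202). The cone rise lost its call without cone P7 replicate 1 (0.98), under plain and non-mitochondrial library totals, and with the compared libraries alone. At P30 the bipolar libraries overlapped those of cones, and the difference from photoreceptors was called at P7 (-2.12 ± 0.18) and P13 (-1.45 ± 0.18) and not at P30. The P13 call was lost under plain library totals (-0.97).

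Lrtm1 had high levels in bipolars and cones and very low ones in rods. Bipolars had 18.2 and 15.3 CPM at P7, 458 and 406 at P13 and 1096 and 1067 at P30. Rods had 0.0201 and 0 CPM at P7, which is 1 read, then 0.211 and 5.61, and 3.12 and 4.57 CPM. Cones had 79.7 and 73.8 CPM at P7, 101 and 168 at P13 and 335 and 322 at P30, so that bipolars lay below cones at P7 and above them at the later ages. Bipolars were 64.5-fold higher at P30 than at P7 in CPM (6.02 ± 0.95, adjusted p = 0.000452), and rods rose by a fitted 8.07 ± 0.95 (adjusted p = 2.09e-05). With 1 read in rods at P7, that rise was 374-fold in read rate with a 95% interval of 66.8 to 14818 that covers counting error only. In cones the difference between P30 and P7 was not called, although the libraries of the 2 ages did not overlap. The SE of Lrtm1 is pooled over all 22 libraries, among them the rods, whose pair differed widely at P13.

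Lrtm2, the relative of Lrtm1 on chromosome 6, ran the other way in photoreceptors. Bipolars had 49.0 and 51.4 CPM at P7, 66.5 and 72.6 at P13 and 50.9 and 63.8 at P30. Rods had 19.9 and 17.1 CPM at P7, 0.316 and 0 at P13 and 0.226 and 0.0929 at P30. Cones had 23.3 and 35.4 CPM at P7, 1.97 and 5.51 at P13 and no reads at P30, which is at least 577-fold lower than at P7. The fall was called in rods (-6.91 ± 1.18, adjusted p = 0.000527) and in cones (fitted -11.95 ± 1.18, adjusted p = 2.91e-05), and no difference was called in bipolars. The rod call was lost with the compared libraries alone.

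**Figure D2:**
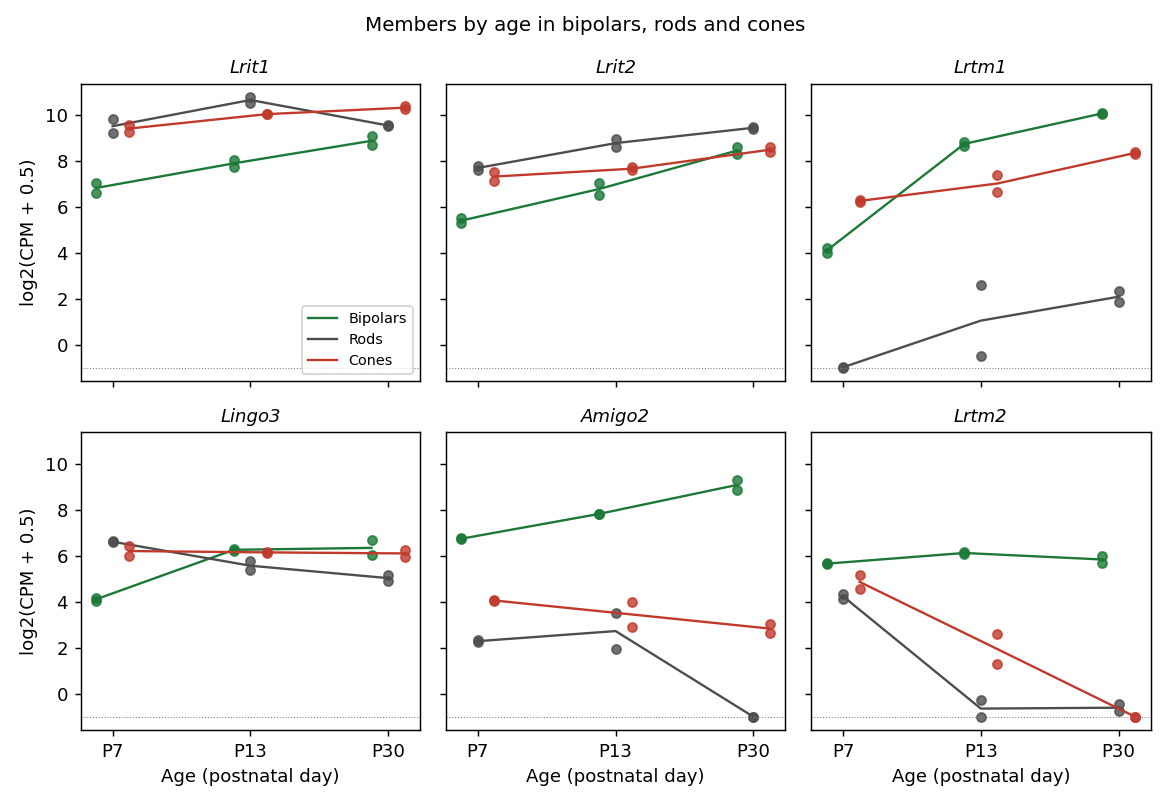
Level by age, as log2(CPM + 0.5), of 6 members in bipolars, rods and cones, with 1 point per library and a line through the means; the dotted line is 0 reads. Lrit1, Lrit2, Lrtm1, Lingo3 and Amigo2 rise in bipolars, while Lrtm2 reaches the dotted line in cones at P30 and nearly so in rods.

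Both Lrtm genes lie inside a calcium channel subunit gene on the opposite strand, Lrtm1 inside Cacna2d3 and Lrtm2 inside Cacna2d4, and the library kit does not mark strand. Lrtm2 and Cacna2d4 share no exon bases, and Cacna2d4 had 456 to 1386 mean CPM in all 11 groups, including 612 CPM in cones at P30 where Lrtm2 had no reads. Cacna2d3 had 16.9, 165 and 946 mean CPM in bipolars at the 3 ages and 1999 CPM in rod bipolars. In cones at P30 it had 18.3 and 12.4 CPM, where Lrtm1 had 335 and 322. How far reads of the surrounding genes enter the counts of these members was not tested.

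**Figure D3:**
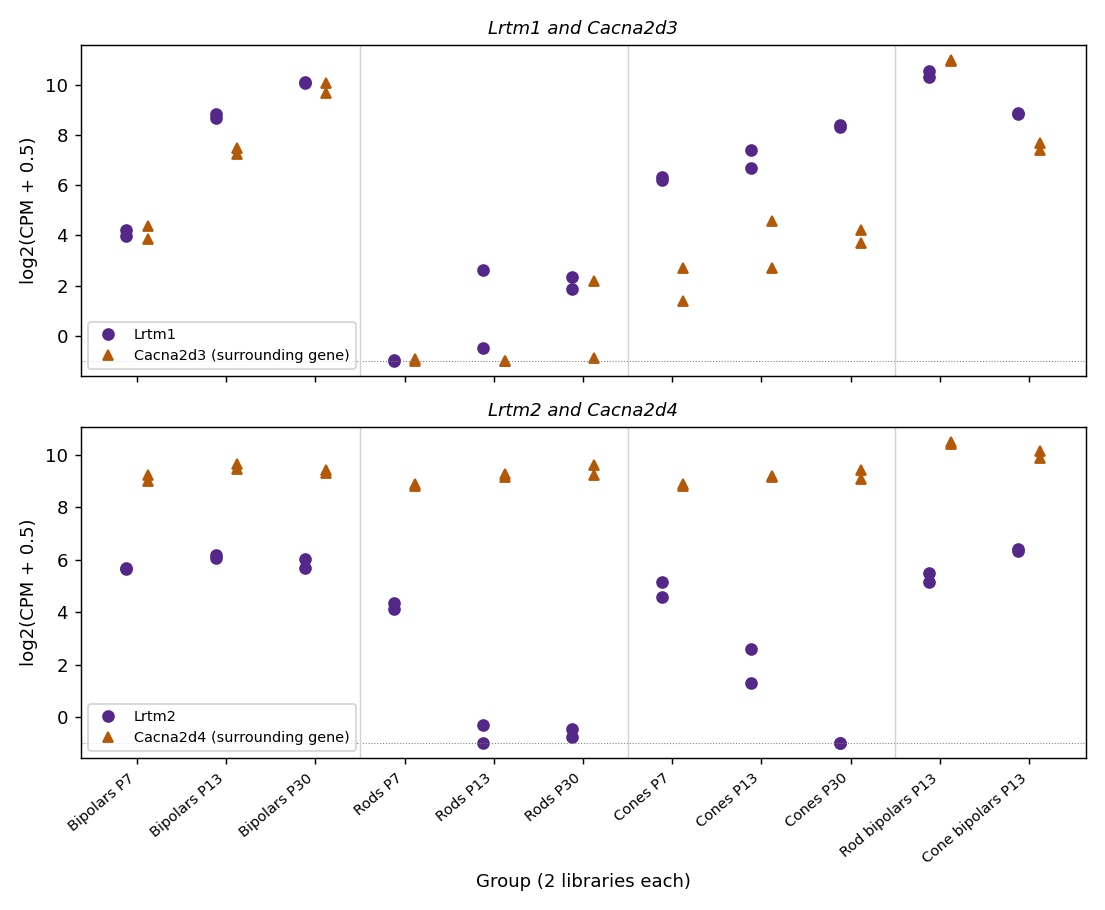
Levels, as log2(CPM + 0.5), of Lrtm1 with Cacna2d3 and of Lrtm2 with Cacna2d4 in the 11 groups, 1 symbol per library. Cacna2d3 is high where Lrtm1 is high in bipolars but low in cones, and Cacna2d4 is high in all groups while Lrtm2 is not.

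More of these genes were called lower than higher in rods against cones at every age. At P7 the test called 11 of 40 members, all lower in rods, where 12.8% of all genes were called, 3.3% higher and 9.52% lower. At P13 it called 1 member higher and 17 lower, where 7.1% of all genes were higher and 14.1% lower. At P30 it called 4 higher and 9 lower, where 9.98% were higher and 10% lower. The median difference over the members was -2.49, -3.63 and -0.87 on the log2 scale, against -0.16, -0.11 and 0.14 over all genes. On the log2(CPM + 0.5) scale it was smaller, at -1.05, -1.65 and -0.49. With members that had no reads in a group set at their bound, the P13 median was -3.61. Calls that held with each library left out numbered 3 of 11 at P7, 10 of the 17 lower calls at P13, and 5 of the 9 lower and 1 of the 4 higher calls at P30. The P7 count was 3 without cone P7 replicate 1, 5 without cone P7 replicate 2 and 6 without rod P7 replicate 1, and with the 4 compared libraries alone the count was 2 at P13 and 7 at P30.

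Other measures moved with the comparison of rods and cones. Bipolar markers summed to at most 22.6 CPM in a rod library, against 212 to 492 CPM in the cone libraries. Müller markers summed to 130 to 247 CPM in rods at P30, against 620 to 806 CPM in cones. The mitochondrial share of reads averaged 2.69%, 6.92% and 8.13% in rods at the 3 ages, against 5.37%, 17.5% and 33.6% in cones. With library totals that leave out mitochondrial transcripts the members called lower in rods numbered 13, 17 and 8, and those called higher 0, 0 and 5. The part of the bipolar and Müller markers was not tested.

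Lrfn2, a postsynaptic protein of the SALM family, was lower in rods at every age. It had 0 and 0 CPM in rods and 24.6 and 17.2 in cones at P7, at least 665-fold lower in rods. At P13 it had 2.28 and 0.101 CPM in rods and 61.4 and 48.9 in cones, and the P30 values were 0.249 and 0.446 CPM in rods and 68.6 and 51.3 CPM in cones. No rod library reached a cone library, and the differences were -11.47, -6.78 and -7.44, each ± 1.12 (adjusted p = 4.29e-06, 0.00043 and 0.000185). The P13 call was lost when only the compared libraries were fitted.

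Lrtm1 was lower in rods at each age, with fitted differences of -12.41, -6.88 and -6.44, each ± 0.95 (adjusted p = 3.22e-07, 8.38e-05 and 0.00015), and the library values given above. At P7 the 1 read in rods put them 7323-fold lower in read rate (95% counting interval 1314 to 289291). Its calls held in each fit with a library left out, and the P13 call was lost with the compared libraries alone.

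Lrrc4, which binds netrin-G2, was lower in rods than in cones at P13 and P30. At P7 rods had 13.9 and 9.76 CPM, against 75.7 and 88.7 in cones, where the difference was not called. At P13 rods had 1.93 and 0 CPM, against 75.1 and 35.0 in cones (-8.75 ± 1.76, adjusted p = 0.00197). At P30 rods had 0.136 and 0 CPM, against 40.7 and 50.4 in cones (-10.46 ± 1.76, adjusted p = 0.000471). The groups did not overlap at any age, and both calls were lost with the compared libraries alone.

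Slitrk6, known for its part in inner ear and eye development, had 0 and 2.72 CPM in rods and 20.1 and 32.2 in cones at P7, 0 and 0 against 17.7 and 4.82 at P13, and 0.860 and 0 against 11.9 and 7.83 at P30. Cones were the higher group in all libraries, and at P13 rods were at least 256-fold lower (adjusted p = 0.00224, and 0.0527 with the compared libraries alone). The P7 and P30 calls (adjusted p = 0.0246 and 0.0251) were each lost when any of 3 single libraries was left out. At P7 these were both cone libraries and rod replicate 1 (adjusted p = 0.102 to 0.322), and at P30 both cone libraries and rod replicate 2 (adjusted p = 0.0596 to 0.299).

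Rtn4rl1, a lipid-anchored relative of the Nogo receptor, had 8.65 and 7.51 CPM in rods and 113 and 152 in cones at P30, 16.3-fold lower in rods (-4.02 ± 0.84, adjusted p = 0.00264). At P13 rods had 19.3 and 1.01 CPM, against 138 and 76.4 in cones (-4.54 ± 0.84, adjusted p = 0.00111). Amigo2 had no reads in rods at P30, against 5.69 and 7.74 CPM in cones, at least 219-fold lower (adjusted p = 1.44e-09). Amigo1, an auxiliary subunit of a potassium channel, had 5.02 and 1.61 CPM in rods and 18.1 and 14.8 in cones at P13 (-2.52 ± 0.55, adjusted p = 0.00373). The P13 calls of Rtn4rl1 and Amigo1 were lost with the compared libraries alone.

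Lrrn3 and Slitrk1 had no reads in rods at P13, against 7.47 and 17.0 CPM and 1.41 and 1.94 CPM in cones, at least 278-fold and 38.1-fold lower (adjusted p = 0.000347 and 0.00164). Lrrtm2, a neurexin ligand, had 0.1003 and 1.14 CPM in rods and 11.8 and 5.88 in cones at P7 (-4.57 ± 0.97, adjusted p = 0.00461), and that call was lost without cone P7 replicate 1 (adjusted p = 0.0609) or rod P7 replicate 1 (0.0598). The other members called lower in rods at P7 were Lingo2, Slitrk2, Amigo2, Lgi1, Lgi2, Ntrk2 and Lrrc3b, of which Slitrk2 alone kept its call with each library left out. Those at P13 were Lrfn3, Lrfn4, Lrrc4b, Slitrk2, Amigo3, Lrtm2, Lgi2, Ntrk2 and Rtn4rl2, of which Lrfn3 and Lrtm2 kept theirs. Those at P30 were Lrfn1, Amigo1 and Lingo3, and none of the 3 calls held with each library left out.

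Ntrk3, the neurotrophin receptor TrkC, went against this pattern. It had 44.999 and 35.8 CPM in rods and 0.881 and 0.736 in cones at P30, 49.99-fold higher in rods (5.63 ± 0.99, adjusted p = 0.000708). At P7 rods had 4.71 and 13.8 CPM, against 5.87 and 3.14 in cones, and at P13 10.7 and 32.6 CPM, against 2.37 and 3.90. The groups overlapped at P7 alone, and the P30 call held in each alternative and with each library left out. Lrig1, which restrains growth factor receptors of the EGF family, had 24.4 and 25.7 CPM in rods and 4.60 and 2.80 in cones at P30 (2.80 ± 0.84, adjusted p = 0.024). That call was lost without cone P30 replicate 2 or either rod P30 library (adjusted p = 0.0928 to 0.0971). Lrit2 was called higher in rods at P13 (1.11 ± 0.20, adjusted p = 0.000939), and fell under the fold threshold without rod P13 replicate 2 (0.93). Lrfn5 (1.80 CPM in rods) and Lrtm2 (0.160 CPM in rods) were the remaining members called higher in rods at P30. Both calls were lost without rod P30 replicate 1 (adjusted p = 0.154 for Lrfn5 and 0.1 for Lrtm2) and on the log2(CPM + 0.5) scale, and that of Lrfn5 also without cone P30 replicate 1 (0.166) or rod P30 replicate 2 (0.0843).

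**Figure D4:**
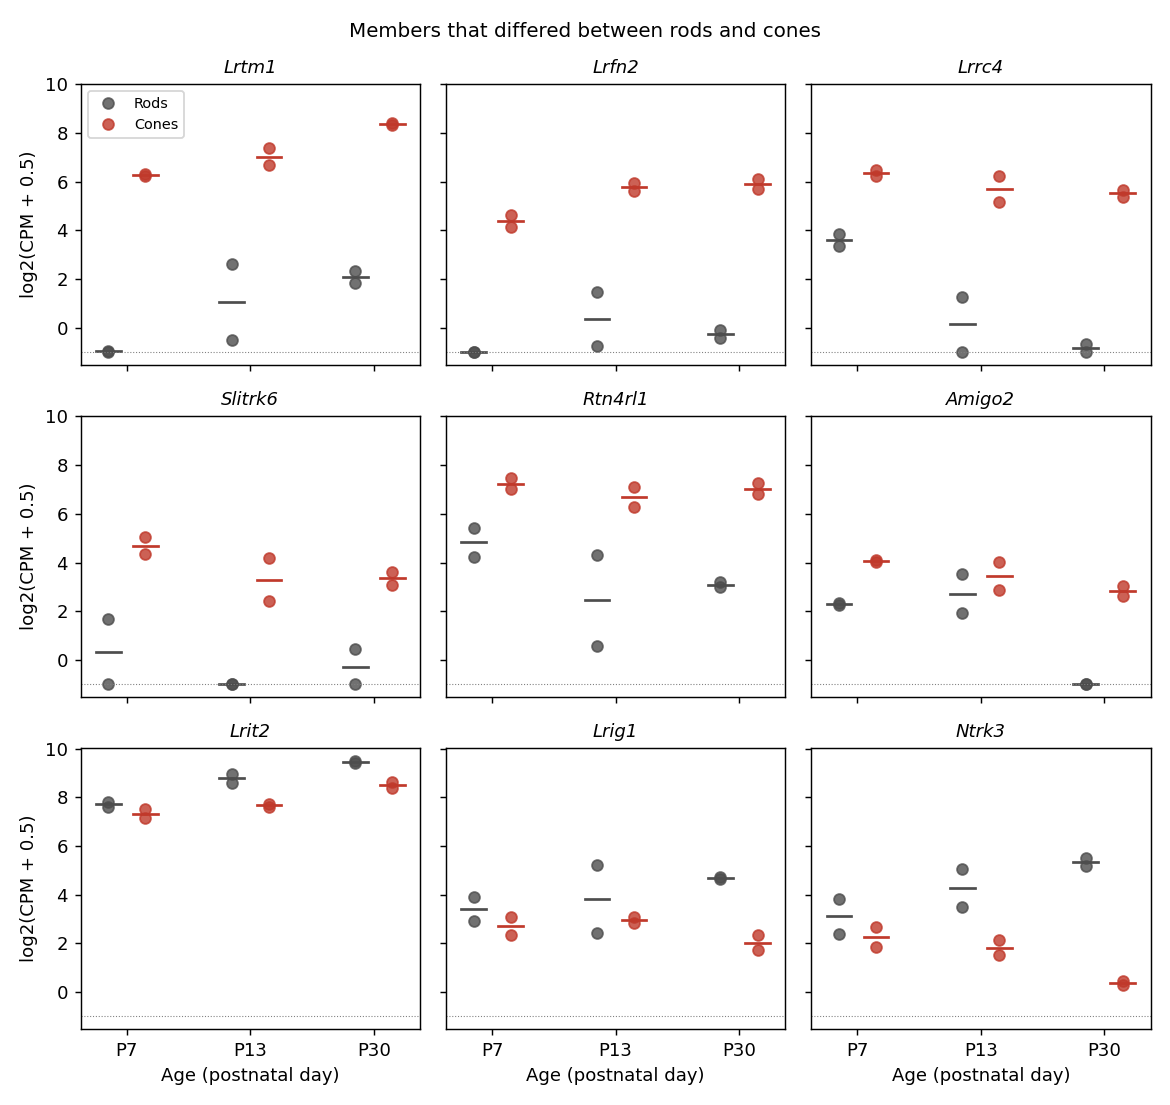
Level, as log2(CPM + 0.5), of 9 members in rods and cones at P7, P13 and P30, 1 point per library with a bar at the mean; the dotted line is 0 reads. Lrtm1, Lrfn2, Lrrc4, Slitrk6 and Rtn4rl1 are lower in rods than in cones at every age, and Ntrk3 and Lrig1 are higher in rods at P30.

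More of these genes were called higher than lower in bipolars against photoreceptors at every age, and the counts were larger at P13 and P30 than at P7. Against the mean of rods and cones, the test called 10 members higher and 3 lower at P7, where 11.6% of all genes were higher and 11.1% lower. At P13 it called 22 higher and 2 lower, where 20.6% were higher and 12.8% lower. At P30 it called 25 higher and 1 lower, where 22.6% were higher and 13% lower. The median difference was 1.80, 4.88 and 4.67 on the log2 scale, against 0.12, 0.18 and 0.13 over all genes. On the log2(CPM + 0.5) scale it was 1.35, 2.85 and 3.03. At P30 all 5 Slitrk, all 4 LRRTM and all 3 Lrrn members measured were higher, and at P13 all 5 Slitrk, 3 LRRTM and all 3 Lrrn members. Of these, Slitrk2, Slitrk6, Lrrn1 and Lrrn2 lost the P30 call without bipolar P30 replicate 2 (adjusted p = 0.0569 to 0.114), Lrrn2 also without replicate 1. Slitrk5, Lrrtm3, Lrrn1 and Lrrn2 lost the P13 call without bipolar P13 replicate 2, and all but Lrrtm3 also without bipolar replicate 1 or cone replicate 1, and Lrrn2 without rod replicate 2 (adjusted p = 0.0523 to 0.116). Calls that held with each library left out numbered 7, 16 and 15 of the higher calls and 3, 2 and 0 of the lower calls. The P7 count of 13 was 24 on the log2(CPM + 0.5) scale, 23 with limma-voom on the recovered reads and 26 with array quality weights.

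Markers of other cells moved with this comparison. The 6 Müller glia markers summed to 167 and 173 CPM in the bipolar libraries at P7, 694 to 877 at P13 and 3987 to 6163 at P30, against at most 247 CPM in a rod library and 806 in a cone library. The 6 amacrine markers summed to 348 to 406 CPM in bipolars at P30, against at most 14.5 in rods and 10.1 in cones of that age, and the 4 microglial markers to 119 to 295 CPM, against at most 10.1 in rods and 4.59 in cones. Vascular markers reached 312 to 389 CPM in bipolars at P30, and at most 18.1 CPM in rods and 34.0 in cones. Most of the bipolar sum was Kdr, at 286 and 366 CPM. Pecam1 had 8.66 and 9.12 CPM in bipolars at P30, against 7.90 and 7.49 in rods and 0.440 and 0.736 in cones. Cldn5 had 16.8 and 13.7 CPM in bipolars, against 0.589 and 0 in rods and 0 and 0.353 in cones. The part of these markers in the member differences was not tested. In bulk libraries fewer cells of a type and less RNA per cell cannot be told apart.

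Ntrk2, the receptor TrkB for brain-derived neurotrophic factor, had 53.6 and 51.4 CPM in bipolars at P7, 340.5 and 314 at P13 and 435 and 334 at P30. Rods had 0 and 0, 0.949 and 0, and 2.67 and 0.409 CPM, and cones 3.39 and 0.270, 1.97 and 3.64, and 35.9 and 7.21 CPM. Bipolars were above every photoreceptor library of their age, by 9.29, 9.43 and 6.53, each ± 1.41 (adjusted p = 0.000131, 8.14e-05 and 0.00164). Ntrk2 had 341 and 368 CPM in rod bipolars at P13. The Müller markers summed to at most 165 CPM there, against 3987 to 6163 CPM in bipolars at P30. The part of the Müller markers in the Ntrk2 levels was not tested.

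Amigo2 had 109 and 105 CPM in bipolars at P7, 226 and 228 at P13 and 642 and 462 at P30. Rods had 4.57 and 4.21, 3.30 and 11.04, and 0 and 0 CPM, and cones 15.9 and 16.5, 6.89 and 15.7, and 5.69 and 7.74 CPM. Bipolars were higher at each age by a fitted 3.67, 4.84 and 11.27, each ± 0.40 (adjusted p = 5.13e-06, 2.09e-07 and 8.27e-11). In CPM the difference from the photoreceptor mean was 10.4-fold, 24.6-fold and 164-fold. The fitted P30 value averages rods and cones on the log2 scale and depends on how the absence of reads in rods is scaled.

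The Slitrk family, transmembrane proteins that bind LAR-type receptor phosphatases, had its highest levels in the bipolar libraries in Slitrk6, Slitrk5 and Slitrk3. Slitrk6 had 76.6 and 111 CPM in bipolars at P13, above its levels in rod bipolars (5.60 and 2.93) and cone bipolars (29.8 and 40.9). The leading Slitrk member was Slitrk3 in rod bipolars, at 98.4 mean CPM, and Slitrk5 in cone bipolars, at 147. Slitrk3 had 29.6 and 25.4, 45.1 and 44.2, and 60.3 and 65.1 CPM in bipolars at P7, P13 and P30, against at most 0.498 CPM in a rod library and 1.21 CPM in a cone library. Its difference was 9.06, 9.66 and 11.54, each ± 1.85 (adjusted p = 0.00164, 0.000711 and 0.000158). Slitrk1 averaged 13.9 ± 0.756 CPM in bipolars at P30 (SD, n = 2) and had no reads in rods or cones, at least 727-fold higher (adjusted p = 1.19e-05). Slitrk5 had 81.7 and 69.5 CPM in bipolars at P30, against 0.430 and 0 in rods and 1.68 and 3.77 in cones (7.64 ± 1.85, adjusted p = 0.00371).

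All 4 LRRTM members, neurexin ligands, separated bipolars from photoreceptors at P30. Lrrtm1 had 23.1 and 28.9 CPM in bipolars and no more than 0.0294 CPM in any of the 4 photoreceptor libraries (fitted 11.21 ± 2.05, adjusted p = 0.000458). The photoreceptor libraries held 1 read of it, a 4039.7-fold difference in read rate (95% counting interval 724 to 159661). Lrrtm4, which also binds heparan sulphate proteoglycans, had 70.8 and 48.2 CPM in bipolars, against 0.113 and 0.0929 in rods and 0 and 0 in cones (11.01 ± 1.89, adjusted p = 0.000273). Lrrtm2 and Lrrtm3 averaged 27.6 ± 6.31 and 10.6 ± 2.62 CPM in bipolars (SD, n = 2), 17.8-fold and 469-fold above the photoreceptor mean. At P7 none of the 4 was called.

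Among the remaining families, Lrrc4b, a ligand of LAR-type phosphatases, had 21.9 and 31.5 CPM in bipolars at P7, against 0.0201 and 0.132 in rods and 2.497 and 0.252 in cones (6.88 ± 1.56, adjusted p = 0.00355), and was called at all 3 ages. Lrrn3 had 63.8 and 71.5 CPM in bipolars at P7, against 0 and 2.499 in rods and 6.17 and 3.93 in cones (6.37 ± 1.48, adjusted p = 0.00417, lost with the compared libraries alone), and stayed between 54.7 and 71.5 CPM in every bipolar library from P7 to P30. Lingo1, a co-receptor of the Nogo receptor, had 12.1 and 19.1 CPM in bipolars at P13 and 1 read in the photoreceptor libraries of that age, 2347-fold higher in read rate (95% counting interval 419.8 to 92848, adjusted p = 0.000312 by limma). Lrtm2 had 50.9 and 63.8 CPM in bipolars at P30, 719-fold above the photoreceptor mean (10.74 ± 1.02, adjusted p = 9.25e-07).

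A call over the mean of rods and cones did not always mean a higher level than in cones. Lrtm1 was called higher in bipolars at P7 (4.01 ± 0.82, adjusted p = 0.00165), where bipolars had 18.2 and 15.3 CPM, rods 0.0201 and 0 CPM and cones 79.7 and 73.8 CPM. Rtn4rl1 at P30 had 167 and 116 CPM in bipolars, overlapping the 113 and 152 CPM of cones and above the 8.65 and 7.51 CPM of rods (2.10 ± 0.73, adjusted p = 0.0291). That call was lost without either bipolar library, cone replicate 1 or rod replicate 2 (adjusted p = 0.0632 to 0.162). Lrfn2 was above rods and below cones in bipolars at P30, at 7.51 and 6.67 CPM, and was not called.

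Members lower in bipolars at P7 were Lrit1 and Lrit2 (above) and Lingo3, a relative of Lingo1. Lingo3 had 17.4 and 16.2 CPM in bipolars at P7, against 96.1 and 99.8 in rods and 84.7 and 64.1 in cones (-2.34 ± 0.21, adjusted p = 5.31e-07). By P30 bipolars had 102 and 64.6 CPM, rods 35.3 and 29.5 and cones 61.7 and 76.1, and the difference was no longer called.

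Between rod bipolars and cone bipolars at P13, 2 of 40 members were called, a share near that of all genes. The test called Amigo2 higher and Ntrk3 lower in rod bipolars, where 4.68% of all genes were called, 1.51% higher and 3.17% lower. The median over the members was -0.73 on the log2 scale, against -0.06 over all genes. Amigo2 had 979 and 1084 CPM in rod bipolars, against 96.7 and 104 CPM in cone bipolars, 10.3-fold higher (3.36 ± 0.46, adjusted p = 0.000382), and the call held in each alternative and with each library left out. Per kilobase of exon its level in rod bipolars, 326 CPM per kb, was the highest of any member in any group except Lrit1 in rods at P13 (377 CPM per kb). Ntrk3 had 0.388 and 7.46 CPM in rod bipolars, against 28.5 and 32.5 in cone bipolars (-4.15 ± 0.99, adjusted p = 0.0211). That call was lost without rod bipolar replicate 1 (adjusted p = 0.238), without either cone bipolar library (0.103 and 0.14) and with the compared libraries alone (0.198).

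The number of members called between the bipolar classes depended on the fit. It was 10 on the log2(CPM + 0.5) scale, 10 with the 4 compared libraries alone and 9 with limma-voom, against 2 here. The shares of all genes called in those fits are not given here, so these counts cannot be set against a background. Lrrtm4, known in mouse retina from the axon terminals of rod bipolars, had 216 and 378 CPM in rod bipolars and 6.66 and 4.57 in cone bipolars, a 52.9-fold difference in mean CPM (5.69 ± 2.18, adjusted p = 0.167). Its adjusted p was 1.95e-05, 0.00906 and 0.000217 in those 3 fits. Lingo1 had 0.194 and 0.303 CPM in rod bipolars and 17.8 and 30.1 in cone bipolars, 96.4-fold apart (-6.53 ± 2.10, adjusted p = 0.0902), with adjusted p of 0.0244 in the fit of the compared libraries and 0.00551 with limma-voom. Slitrk5 had 2.07 and 9.79 CPM in rod bipolars and 161 and 133 in cone bipolars, 24.8-fold apart (-5.02 ± 2.13, adjusted p = 0.223), with adjusted p of 0.0418 and 0.00171 in the same fits. The libraries did not overlap in these 3 pairs of groups. The share of all genes without overlap is not given here, so this is description only.

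Further members had no call here, and their levels are given as description only. Lrrtm3 had 2.91 and 1.71 CPM in rod bipolars, against 20.8 and 23.0 in cone bipolars. Slitrk6 had 5.60 and 2.93 CPM in rod bipolars, against 29.8 and 40.9, and Lrrc4c, the netrin-G1 ligand, 9.26 and 24.8 CPM, against 104 and 141. Lrtm1 had 1264 and 1485 CPM in rod bipolars, against 464 and 452 in cone bipolars (1.58 ± 0.95, adjusted p = 0.442), and Slitrk3 93.3 and 104 CPM, against 46.8 and 39.2. The SE of Lrtm1 comes from all 22 libraries, among them rods at P13 with 0.211 and 5.61 CPM. Ntrk2 had overlapping levels of 341 and 368 CPM in rod bipolars and 362 and 346 in cone bipolars, and Lrrn3 had 42.9 and 44.5 CPM, against 46.6 and 46.8. The markers of rod bipolars summed to at least 6339.9 CPM in rod bipolars and at most 404 CPM in cone bipolars. The 3 cone bipolar markers summed to 273 to 279.9 CPM in rod bipolars, against 914 to 1250 in cone bipolars, although one of them, Grik1, averaged 238 CPM in rod bipolars and 129 in cone bipolars. Müller markers summed to 87.5 to 165 CPM in rod bipolars, against 278 to 295 in cone bipolars, and microglial markers to 3.98 to 5.90 CPM, against 35.4 to 42.7. Their part in the differences between the classes was not tested.

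**Figure D5:**
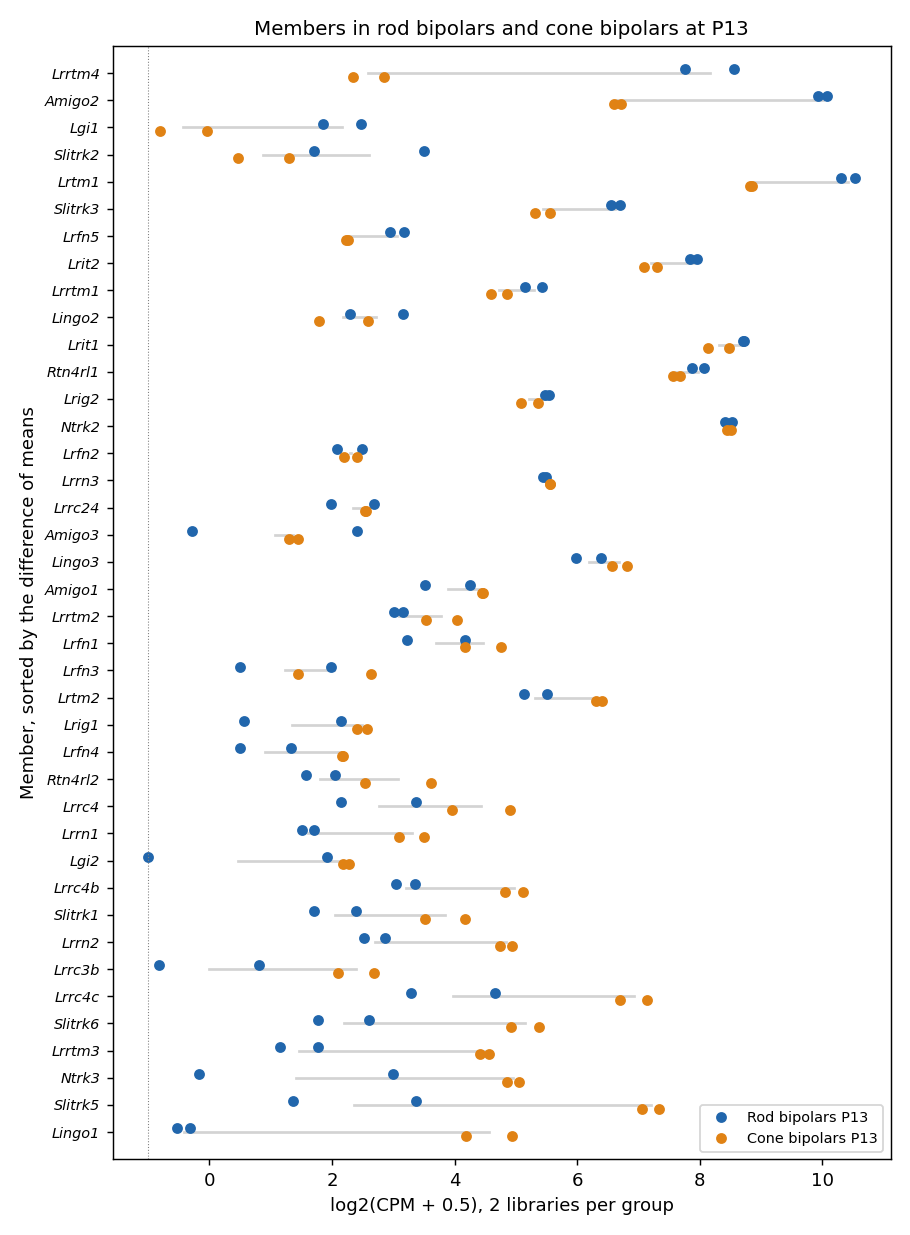
Levels, as log2(CPM + 0.5), of the 40 members in rod bipolars and cone bipolars at P13, 2 points per group, sorted by the difference of the means. Lrrtm4 and Amigo2 head the rod bipolar side and Lingo1, Slitrk5 and Ntrk3 the cone bipolar side.

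All age calls in bipolars were rises, while rods and cones had calls in both directions. Between P7 and P30 the test called 8 members higher and 0 lower in bipolars, where 7.95% of all genes were higher and 4.5% lower. In rods it called 5 higher and 5 lower, where 19.8% of all genes were called, 10.7% higher and 9.15% lower, and in cones 1 higher and 4 lower, where 3.19% were higher and 7.28% lower. The shares of members called in rods and cones were near those of all genes. In cones the mitochondrial share of reads averaged 5.37%, 17.5% and 33.6% at P7, P13 and P30, and the Müller marker sum was 620 to 806 CPM at P30, against 194 to 255 CPM at P7. The Müller markers did not all move alike in cones. Glul rose from 46.9 and 48.3 CPM at P7 to 299 and 339 at P30, while Apoe fell from 70.5 and 37.0 to 24.5 and 23.4. With library totals that leave out mitochondrial transcripts, 7 members were called in cones, all lower. The part of the Müller markers was not tested. The median difference was 1.04 in bipolars, -0.18 in rods and -1.91 in cones, against 0.02, 0.10 and -0.19 over all genes. On the log2(CPM + 0.5) scale it was 0.88, -0.40 and -1.04. In bipolars the count was 14, 19 and 13 with log2(CPM + 0.5), the compared libraries alone and limma-voom, and 5 without bipolar P30 replicate 2 or without bipolar P7 replicate 1. In cones it was 2 without cone P30 replicate 1, 1 without cone P7 replicate 1, and 12 with all lower under plain library totals, which moved the median over all genes to -0.97. The shares of all genes called in these other fits of bipolars and cones are not given here.

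In bipolars Lingo3 rose by 2.27 ± 0.24 and Amigo2 by 2.35 ± 0.46 on the log2 scale, 4.95-fold and 5.15-fold in CPM (adjusted p = 1.05e-05 and 0.0028), beside Lrtm1, Lrit1 and Lrit2. These 5 calls held with each library left out and in each alternative. The Müller marker sums given above moved with age in the same libraries. So did the 3 rod bipolar markers, which summed to 641 to 723 CPM at P7 and 1903 to 2308 CPM at P30. The 3 cone bipolar markers summed to 1484 to 1560 CPM at P7 and 844 to 963 CPM at P30. The part of these markers was not tested. Lrrc3b had 6.44 and 10.9 CPM at P30, against 0.326 and 0.0565 at P7 (5.85 ± 1.89, adjusted p = 0.0478), and that call was lost without any one of the 4 libraries (adjusted p = 0.0848 to 0.313). Amigo1 and Lrfn2 were the remaining members called higher, and both calls were lost without bipolar P30 replicate 2 or P7 replicate 1 (adjusted p = 0.0509 to 0.211), that of Amigo1 also without P7 replicate 2 (0.111).

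In rods Lingo3 had 35.3 and 29.5 CPM at P30, against 96.1 and 99.8 at P7 (-1.60 ± 0.24, adjusted p = 0.000198). Lrrc4 had 0.136 and 0 CPM at P30, against 13.9 and 9.76 at P7, 174-fold lower (-8.50 ± 1.76, adjusted p = 0.00226, lost with the compared libraries alone). Amigo2 had no reads at P30, against 4.57 and 4.21 CPM at P7, at least 143-fold lower (adjusted p = 4.07e-09). Lrfn1 was also called lower in rods at P30, and Lrfn2, Slitrk2 and Ntrk2, each without reads in rods at P7, were called higher at 0.348, 0.849 and 1.54 mean CPM. Those last 3 calls were lost on the log2(CPM + 0.5) scale, Ntrk2 also without rod P30 replicate 1 (adjusted p = 0.0613), and Lrfn1 without rod P30 replicate 2 (0.0691). In cones Slitrk1, Lrfn5 and Lrrc3b were called lower at P30, with at most 2.20 mean CPM at P7, and these calls were lost without cone P30 replicate 1 or P7 replicate 1 (adjusted p = 0.0503 to 0.195). Those of Lrfn5 and Lrrc3b were also lost without P7 replicate 2 (0.141 and 0.157), and that of Lrrc3b without P30 replicate 2 (0.0922).

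The change between P7 and P30 itself differed between bipolars and photoreceptors for 7 members, all higher in bipolars, where 6.86% of all genes were called higher and 4.27% lower. Amigo2, Lingo3, Lrit1, Lrit2 and Lrtm2 kept that call with each library left out. Between rods and cones the change differed for 6 members, 4 higher and 2 lower in rods, where 6.04% of all genes were called higher and 4.57% lower. Of these Amigo2 and Lrtm1 kept the call with each library left out, and Lrtm1 lost it on the log2(CPM + 0.5) scale. The rod and cone count was 3 without cone P30 replicate 1 or P7 replicate 1 and 2 without cone P7 replicate 2, and the bipolar count was 11 without rod P7 replicate 1.

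Binding partners of these proteins formed a separate list, of which 17 of 20 genes were measured and Ntf3, Ntf5 and Mag were not analysed here. Against photoreceptors, bipolars had 5 of 17 partners higher at P7, where 11.6% of all genes were higher. The count was 14 at P13, where 20.6% of all genes were higher, and 13 with 1 lower at P30, where 22.6% were higher and 13% lower. Ngfr, a neurotrophin co-receptor, is among the 14 at P13 although its levels lay between those of the photoreceptors, at 3.73 and 5.62 CPM in bipolars, 0 in both rod libraries and 35.5 and 64.0 in cones, and that call was lost with 5 of the 6 libraries left out in turn (adjusted p = 0.0541 to 0.219). Ptprd, the LAR-type phosphatase bound by Slitrk proteins, had 1516 and 1494 CPM in bipolars at P7, against 21.2 and 16.9 in rods and 84.3 and 13.9 in cones (5.88 ± 1.03, adjusted p = 0.000458). Nrxn3, a neurexin, had 1448 and 1414 CPM in bipolars at P30, against 14.0 and 3.14 in rods and 299.6 and 246 in cones (5.07 ± 0.46, adjusted p = 5.38e-07). Bdnf, the Ntrk2 ligand, had 44.1 and 48.5 CPM in bipolars at P30, against 0 and 0.483 in rods and 0 and 13.04 in cones (8.41 ± 2.62, adjusted p = 0.0169). That call was lost without either bipolar library, cone replicate 1 or rod replicate 1 (adjusted p = 0.051 to 0.0951). Adam22, a receptor of Lgi proteins, had 119 and 139.6 CPM in bipolars at P30, against 2.56 and 2.83 in rods and 39.3 and 62.2 in cones (3.48 ± 0.40, adjusted p = 6.64e-06).

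The netrin-Gs, ligands of the NGL family, differed in where they were found. Ntng1 had 761 and 943 CPM in rod bipolars and 151 and 113 in cone bipolars, and 302 and 238 CPM in bipolars at P30, against 3.17 and 0 in rods and 9.37 and 0 in cones (10.39 ± 3.13, adjusted p = 0.0141). The last difference was not called without either bipolar library or rod replicate 2 (adjusted p = 0.0544 to 0.0785). Ntng2 had 0.365 and 0.0372 CPM in bipolars at P30, against 3.21 and 2.84 in rods and 5.73 and 6.98 in cones (-5.09 ± 1.25, adjusted p = 0.00407), a call lost without bipolar replicate 2 (0.0976). Rods had 4, 7 and 4 partners lower than cones at P7, P13 and P30 and none higher, where 9.52%, 14.1% and 10% of all genes were lower and 3.3%, 7.1% and 9.98% higher. Among them Ngfr, which had no reads in rods at P13, differed by at least 1130.4-fold at that age (fitted -12.68 ± 1.28, adjusted p = 4.16e-06). Between the bipolar classes, where 3.17% of all genes were lower in rod bipolars, Gpc4 and Ngfr were lower there, at 0.0504 and 0.101 mean CPM, against 3.12 and 6.54 in cone bipolars (adjusted p = 0.0166 and 0.00232). The Gpc4 call was lost without either cone bipolar library or rod bipolar replicate 1 (adjusted p = 0.0865 to 0.193), and both were lost with the compared libraries alone.

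Of 5 other leucine-rich repeat proteins, Elfn1, which reaches across the cleft to the glutamate receptor of ON-bipolars, had 0.638 and 2.68 CPM in bipolars at P30, against 176 and 135 in rods and 121 and 160.2 in cones (-6.80 ± 0.58, adjusted p = 2.92e-07). Lrit3 had 0.608 and 0 CPM in bipolars, against 9.10 and 8.27 in rods and 7.49 and 25.8 in cones (-7.36 ± 1.40, adjusted p = 0.000641). Nyx, which encodes nyctalopin, had 59.6 and 59.6 CPM in bipolars, against 0.113 and 0.0186 in rods and 0 and 0 in cones (11.53 ± 2.06, adjusted p = 0.00039). Elfn1 and Lrit3 were called lower in bipolars, and Nyx higher, at all 3 ages, and the Lrit3 call at P7 was lost without bipolar P7 replicate 2 (adjusted p = 0.114). Elfn2 had 8.91 and 7.26 CPM in bipolars at P30, against 0.0226 and 0 in rods and 7.93 and 4.30 in cones. It was called higher in bipolars at P30, although its levels overlapped those of cones. Elfn2 was called lower in rods than in cones at all 3 ages, and Islr2 at P7 and P13. Whether the calls of Elfn2 and Islr2 hold with libraries left out is not given here.

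Reads of some members are uncertain. Lrrc24 shares 46.82% of its exon bases with Lrrc14 on the opposite strand, Lrrtm4 shares 25.1% with the antisense gene Gm4409, and Lrrc3b shares 20.48% with B230110C06Rik on the opposite strand. Gm4409 and B230110C06Rik were not analysed here. Without strand, reads of such pairs cannot be told apart. Besides Lrtm1 and Lrtm2, Lrrtm1, Lrrtm2, Lrrtm3, Lrfn1, Lrfn4, Lrrc4, Lrrn3 and Amigo3 lie wholly inside a coding gene on the opposite strand. Lrrtm1 lies in Ctnna2, a catenin gene with 116 mean CPM in bipolars at P30, against 6.36 in rods and 5.67 in cones. Lrrc4 lies in Snd1, which had 13.5 mean CPM in rods and 26.4 in cones at P30.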

How the data were processed

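RNA was measured in 22 libraries of sorted mouse retinal cells, 11 groups of 2. Per the labels' protocols, RNA was isolated from sorted cells, linearly amplified and made into libraries with a kit that does not mark strand. The authors deposited 1 table of log2 CPM values per gene and library, and the submitters' processing notes name STAR, edgeR and the builds GRCm38 and mm10. Which genes the authors kept, and how reads were counted, is not given in the sources used here. Linear amplification and low input can leave genes without reads in single libraries, which widens their errors.

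The log2 CPM values gave back whole reads (100.0% within 0.01 of a whole number; lowest log2 CPM -7.10), so CPM, reads and depth (14.4 to 54.4 Mreads) come from the deposited table. CPM values printed here are 2 to the power of the log2 value, less 2 to the power of the lowest log2 value. A gene without reads is thus at 0. A limma 3.58.1 model (R 4.3.3) with 1 coefficient per group was fitted to the deposited log2 CPM of 13405 genes, those at log2 CPM 0 or more in both libraries of at least 1 group, with an empirical Bayes trend. Calls needed a p under 0.05 after Benjamini-Hochberg adjustment and a log2 fold change reaching 1. Standard errors have 11 residual degrees of freedom. The table holds log2 values, so the edgeR count test was not run and limma was used in its place; limma-voom on the recovered reads was an alternative, as were other library totals, filters, a pseudocount of 0.5 CPM, a fit of the compared libraries, a replicate block, array quality weights (added after seeing the data) and leaving out each library.

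Tables were made with Python 3.11.15 and pandas 2.3.3. Symbols, exon lengths and positions come from GENCODE and promoters from RefSeq. The members and lists were chosen with earlier results of these data known. Members were given library by library where they were among the 4 largest called rises or falls of a comparison, with groups that did not overlap and a mean log2 CPM of at least 3 in the higher group, or led their family per kilobase. A few others were chosen after their values were seen. Intervals of read ratios are exact (Clopper-Pearson, conditional on the summed reads), and they and the floors cover counting error only.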

Additional observations from a re-analysis of the deposited data

Results flagged for a closer look

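In 13 cases the P7 to P30 change of a member differed between cell types by the limma test of the difference itself, which is what brought each of them here. Values are fitted log2 differences of the changes. Those of Amigo2, Lrtm2, Lrrc3b and Lingo2 rest on groups with no reads and depend on how these are scaled.

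Between bipolars and photoreceptors, the change was higher in bipolars for Lrtm2 (9.61, adjusted p = 0.00051), Lrrc3b (8.91, adjusted p = 0.0202), Amigo2 (7.61, adjusted p = 1.46e-06), Lingo3 (3.12, adjusted p = 9.18e-06), Amigo1 (2.57, adjusted p = 0.022), Lrit2 (1.60, adjusted p = 0.000653) and Lrit1 (1.59, adjusted p = 0.00112). Lrtm2 had no call within bipolars and fell in rods and cones, and Lingo3 rose in bipolars and fell in rods.

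Between rods and cones, the change was higher in rods for Lingo2 (11.18, adjusted p = 0.0456), Lrfn5 (10.42, adjusted p = 0.0401), Lrtm1 (5.97, adjusted p = 0.0107) and Ntrk3 (4.72, adjusted p = 0.0425), and lower in rods for Amigo2 (-7.95, adjusted p = 5.46e-06) and Lingo3 (-1.496, adjusted p = 0.0116). Lingo2 and Lrfn5 averaged at most 2.20 CPM in every rod and cone group of P7 and P30. Lrtm1 had 1 read in rods at P7. The 4 calls of Lingo2, Lrfn5, Ntrk3 and Lingo3 were lost when 1 of several single libraries was left out, for Lingo3 only without cone P7 replicate 2.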

How the results depend on the processing

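No called member reversed in any of the fits run. Of 1409 member calls refitted under the processing alternatives 1291 kept their call and 118 lost it, 49 of them when only the compared groups were fitted. With single libraries left out, 624 of 778 were kept.

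The shares of all genes called in the alternative fits are not given here. Counts of members called moved by over 1.5 times as follows. With the compared groups alone they were 2 (rods against cones at P13), 7 (the same at P30), 10 (rod against cone bipolars) and 19 (bipolars, P30 against P7). On the log2(CPM + 0.5) scale they were 24 (bipolars against photoreceptors at P7), 10 (rod against cone bipolars), 8 (cones, P30 against P7), 14 (bipolars, P30 against P7) and 14 (the change in bipolars against photoreceptors). With limma-voom they were 23, 9 and 13 for bipolars against photoreceptors at P7, rod against cone bipolars, and bipolars with age. With array quality weights they were 11 (rods against cones at P13), 26 (bipolars against photoreceptors at P7), 13 (bipolars with age) and 11 (the change in bipolars against photoreceptors). The stricter filter gave 3 for cones with age, and plain library totals gave 12 for cones with age and 11 for the change in rods against cones. Plain totals moved the median of all genes to -0.97 in cones with age, 0.74 in rods against cones at P30 and 0.66 in bipolars against photoreceptors at P13.

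With each library left out in turn, the counts ranged from 3 to 10, 13 to 18 and 9 to 11 for rods against cones at P7, P13 and P30, from 10 to 17, 18 to 29 and 18 to 26 for bipolars against photoreceptors, and from 1 to 3 for rod against cone bipolars. They ranged from 9 to 14 for rods, 1 to 7 for cones and 5 to 7 for bipolars with age, and from 2 to 8 and 5 to 11 for the changes in rods against cones and in bipolars against photoreceptors.

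Replicate numbers showed little sign of pairing: deviations of same-numbered libraries correlated from -0.142 to 0.193 over 55 pairs of groups (median 0.0068, 5 pairs over 0.1). The sources used here do not say whether same-numbered libraries share an animal or a batch, and the correlations cannot exclude it. With the replicate block the counts were 11, 16 and 13 for rods against cones, 13, 24 and 26 for bipolars against photoreceptors, 2 for rod against cone bipolars, 10, 5 and 8 for rods, cones and bipolars with age, and 5 and 7 for the changes.

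With 2 libraries a group and levels under 0.0275 to 0.0766 CPM missed, low members and those with reads in 1 of 2 libraries are the least firm.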
